A study of Arabidopsis thaliana with 6 samples.

Results

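10 genes that plants switch on within minutes of touch, wounding, cold or attack were followed by RNA sequencing in wild-type Arabidopsis thaliana and in the snl1/2/3/4/5 quintuple mutant. They were taken by locus from the count files, and all 10 of the 33602 loci were found. The set holds 4 zinc finger transcription factors (ZAT6, ZAT10, ZAT11 and ZAT12), 2 calmodulin-like calcium sensors (TCH2 and TCH3) and 4 ethylene response factors (ERF5, ERF6, ERF104 and ERF105). Each group had 3 libraries, of aerial tissue from seedlings 11 days old, grown in 16 h of light and 8 h of dark at about 22 degrees and collected 5 h after lights on (ZT5). Wild type was the ecotype Col-0, and the mutant, in the same ecotype, carries mutations in the 5 SIN3-LIKE genes SNL1 to SNL5. The sources used here name no alleles. SNL proteins are the plant relatives of yeast Sin3, a scaffold that brings histone deacetylases to chromatin. No touch, cold or wounding treatment is named in the labels, so the values are levels in plants harvested without a stated stimulus.

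Touch, wounding and other sudden stress raise calcium in the cytosol and activate a mitogen-activated protein kinase cascade in plant cells, and a wave of short-lived transcripts follows. The wave includes calcium sensors, which bind the ion and pass the signal on, and transcription factors of both signs. The ZAT proteins carry C2H2 zinc fingers and a short repression motif, and the ERF proteins named here bind the GCC box of defence genes and mostly activate them. Because these transcripts appear and decay fast, their level is known to depend on what a plant met shortly before harvest.

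Transcripts of 7 of the 10 genes were lower in snl1/2/3/4/5 and none was higher, at an adjusted p below 0.05 (edgeR quasi-likelihood test, Benjamini-Hochberg adjustment over the 19591 tested genes). At an unadjusted p below 0.05 none of the 10 was higher either. Over all tested genes 16.5% were called lower and 18.3% higher, both at the adjusted p and not the unadjusted one. TCH3 fell 3.08-fold, ZAT11 2.51-fold and ERF6 2.13-fold, and ZAT12, ERF105, ZAT6 and ERF104 fell by between 1.62-fold and 1.84-fold. ZAT10 and ERF5 had lower means without passing the threshold, and TCH2 had a slightly higher mean that did not pass it either. The median log2 fold change of the 10 genes was -0.78, against 0 over all tested genes, of which 50% lay below 0. In 6 of the 10 genes every mutant library lay below every wild-type library, which held for 24.6% of tested genes, and in none did every mutant library lie above, which held for 25.2%. In whole aerial tissue, fewer cells that express a gene and less RNA per cell cannot be told apart.

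How many genes passed depended on single libraries. Without Col-0 replicate 1 the count of lower genes was 1 (TCH3), without snl1/2/3/4/5 replicate 2 it was 2, and without snl1/2/3/4/5 replicate 1 it was 3. It was 5 without either of the other Col-0 libraries and 9 without snl1/2/3/4/5 replicate 3. Counts over the whole table moved too: 3224 genes were lower with all libraries, and 1757 to 3511 with 1 library left out. No gene changed direction under any of 13 alternative settings.

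**Figure D1:**
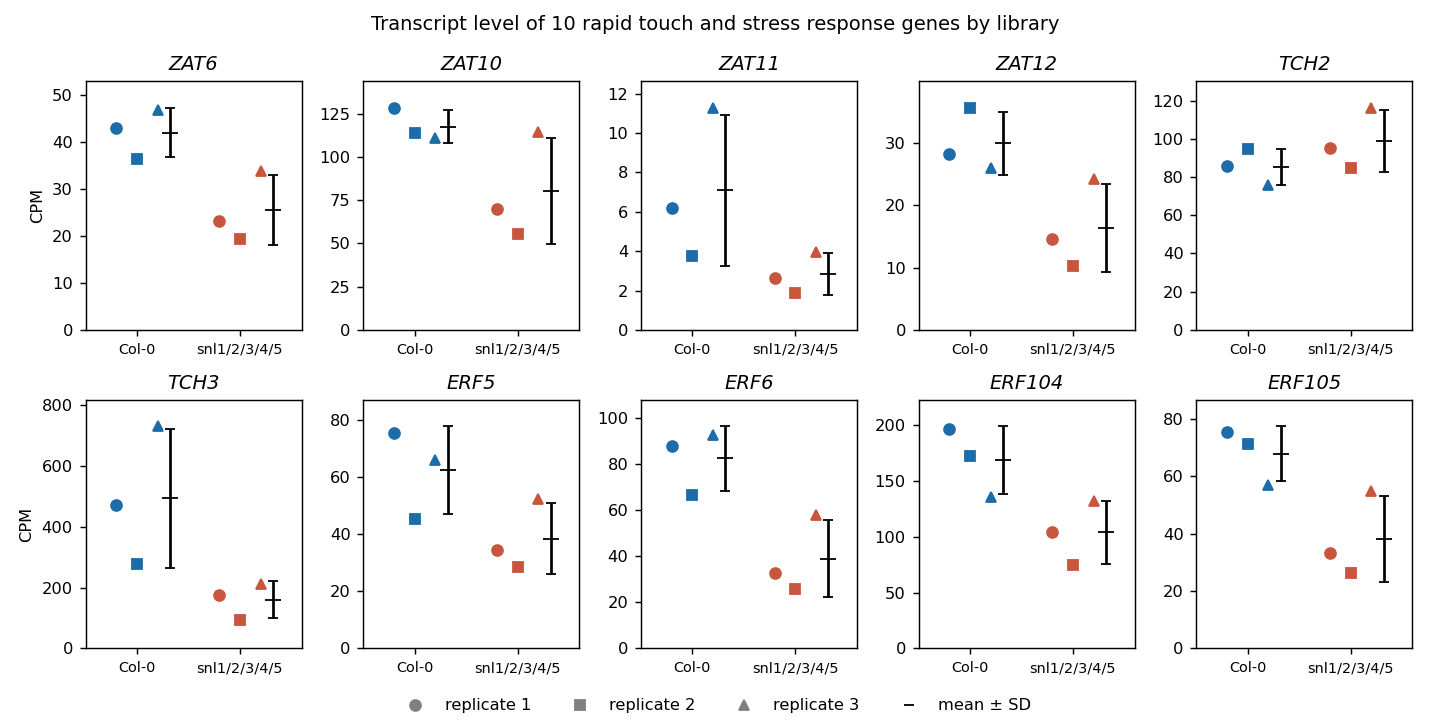
Level of each of the 10 genes in CPM (read counts scaled to library size; linear axes from 0) in the 3 Col-0 libraries (blue) and the 3 snl1/2/3/4/5 libraries (red). Marker shapes give the replicate number and the black bars the mean and SD. TCH3 lay between 278 and 731 CPM in Col-0 and between 92.3 and 213 CPM in the mutant, and mutant replicate 3 (red triangle) is the highest mutant library in all 10 panels.

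The genotype and the libraries were checked first. Transcripts of SNL1 to SNL5 were lower in every mutant library, with log2 fold changes from -0.92 (SNL5) to -4.57 (SNL2), and SNL6, the member of the family outside the genotype, had a log2 fold change of 0.04 (adjusted p = 0.753, edgeR quasi-likelihood test, Benjamini-Hochberg adjustment). Mutant replicate 3 had the highest level of each of the 5 mutated genes among the mutant libraries, for SNL2 7.57 CPM against 2.32 and 2.64 CPM. For SNL5 the margin was small, with 26.4, 24.8 and 26.6 CPM in mutant replicates 1 to 3. Total counts ranged from 12622416 to 15774357 per library. The green tissue markers RBCS1A, RCA, LHCA1, CAB1, PSBO1 and GAPA summed to between 47560 and 51690 CPM in Col-0 and between 44910 and 55000 CPM in the mutant, and none of the 6 passed the test by edgeR, adjusted or not. The 9 root markers summed to between 1178 and 1228 CPM in Col-0 and between 2335 and 3176 CPM in the mutant. Of the 8 root markers tested 2 rose and 6 did not pass, beside 18.3% higher and 16.5% lower over all tested genes. The same shares stand beside the count of green tissue markers, and both lists are short. PYK10, a root beta-glucosidase, rose by 1.25 and IRT1, the root iron transporter, by 0.90 on the log2 scale. PYK10 alone held between 1109 and 1163 CPM in Col-0 and between 2268 and 3081 CPM in the mutant, most of each sum. No root marker was at 0 in all libraries, although the tissue is described as aerial. CASP1 had 21.6, 22.8 and 25.2 CPM in Col-0 and 30.6, 25.0 and 23.7 CPM in the mutant, whereas NRT2.1 had at most 0.132 CPM. Whether the libraries held root tissue was not tested. The part of the SNL and marker differences in the levels of the 10 genes was not tested.

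The promoters of 4 of the genes are shown because they hold the sequence features that stood out among the 10 or set TCH2 apart from the others. Each is the 250 bases before the annotated transcript start in RefSeq's TAIR10.1 assembly, written 5' to 3' on the strand of the gene. Capitals in ZAT6, ZAT10 and ZAT11 mark 2 stretches, each shared by 2 of these promoters, and in ZAT6 and ZAT10 also a GCC box on the opposite strand, which reads GGCGGC. Capitals in TCH2 mark matches to the rapid stress response element, a motif bound by calmodulin-binding CAMTA transcription activators. The windows are chr5:1217363-1217612 (minus strand) for ZAT6, chr1:9649324-9649573 (minus strand) for ZAT10, chr2:15706035-15706284 (plus strand) for ZAT11 and chr5:14999620-14999869 (minus strand) for TCH2.
ZAT6: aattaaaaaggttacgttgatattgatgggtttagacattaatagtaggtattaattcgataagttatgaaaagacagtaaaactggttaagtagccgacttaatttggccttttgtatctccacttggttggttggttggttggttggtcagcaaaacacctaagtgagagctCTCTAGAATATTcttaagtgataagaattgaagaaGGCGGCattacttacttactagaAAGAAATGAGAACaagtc
ZAT10: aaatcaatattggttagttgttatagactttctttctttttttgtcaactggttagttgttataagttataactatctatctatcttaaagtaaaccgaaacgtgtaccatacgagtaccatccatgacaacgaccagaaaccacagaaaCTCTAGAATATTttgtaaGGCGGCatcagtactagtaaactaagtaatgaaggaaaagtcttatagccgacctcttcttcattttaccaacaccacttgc
ZAT11: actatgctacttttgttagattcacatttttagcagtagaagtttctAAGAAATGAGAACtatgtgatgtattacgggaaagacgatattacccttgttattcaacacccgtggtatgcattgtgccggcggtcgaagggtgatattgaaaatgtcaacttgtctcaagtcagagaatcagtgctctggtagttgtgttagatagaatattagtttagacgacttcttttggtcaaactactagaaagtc
TCH2: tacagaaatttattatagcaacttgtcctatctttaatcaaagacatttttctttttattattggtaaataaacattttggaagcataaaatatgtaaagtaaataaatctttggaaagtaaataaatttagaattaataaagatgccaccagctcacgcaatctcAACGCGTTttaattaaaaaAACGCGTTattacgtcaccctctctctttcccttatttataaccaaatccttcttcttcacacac

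The rapid stress response element CGCGTT was searched on both strands in the same window of 27443 protein-coding genes and occurred in 2.59% of them. Among the 10 genes it occurred only in TCH2, with 4 matches that overlap in 2 pairs and begin 84, 82, 65 and 63 bases before the transcript start. The GCC box GCCGCC, found in 1.87% of promoters, occurred in ZAT6, 41 bases before the start, and in ZAT10, 82 bases before it. The W box core TTGAC, the site of WRKY factors, occurred in 44.9% of promoters and in 5 of the 10, and the G box CACGTG in 6.49% of promoters and in none of the 10. When all 45 pairs of the 10 promoters were compared, the longest run in common was aagaaatgagaac, 13 bases long, in ZAT6 and ZAT11. It begins 18 and 203 bases before the start, and these 2 are the only ones of the 27443 promoters that hold it on either strand. The next was ctctagaatatt, 12 bases long, in ZAT6 and ZAT10, where it begins 76 and 100 bases before the start. It is held by 6 promoters, those of ZAT6 and ZAT10 included. These runs were picked as the longest after the comparison, and a match describes letters in a window and not a bound site.

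Among the zinc finger genes, ZAT6 (AT5G04340, chromosome 5), a regulator of phosphate balance and of cadmium and chilling responses, stood at 43.0, 36.3 and 46.8 CPM in Col-0 replicates 1 to 3. The mutant libraries held 23.2, 19.4 and 33.8 CPM. The highest mutant library lay just under the lowest wild-type library, and the groups did not overlap. ZAT6 fell 1.65-fold, from 42.0 ± 5.29 to 25.5 ± 7.44 CPM (SD, n = 3 per group; log2 fold change -0.73 ± 0.19 SE, adjusted p = 0.0189, edgeR quasi-likelihood test, Benjamini-Hochberg adjustment). The call was lost without Col-0 replicate 1 (adjusted p = 0.0634), Col-0 replicate 3 (0.0586) or mutant replicate 2 (0.0637), and the adjusted p ranged from 0.00148 to 0.0637 over the alternatives.

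ZAT12 (AT5G59820, chromosome 5), a component of the response to reactive oxygen, intense light and cold, had 28.2, 35.6 and 25.9 CPM in Col-0. In the mutant it had 14.6, 10.3 and 24.2 CPM. Mutant replicates 1 and 2 stood far below wild type, and replicate 3 came within a small margin of the lowest Col-0 library without reaching it. The decrease was 1.84-fold, from 29.9 ± 5.08 to 16.4 ± 7.08 CPM (SD, n = 3 per group; log2 fold change -0.88 ± 0.27 SE, edgeR adjusted p = 0.0336). It passed in 8 of 13 alternatives (adjusted p 0.00212 to 0.1). Among the fits that leave out 1 library it did not pass without Col-0 replicate 1 (0.0780) or 2 (0.1) or mutant replicate 1 (0.0803) or 2 (0.0908).

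ZAT11 (AT2G37430, chromosome 2), a zinc finger gene studied in nickel tolerance, was the least abundant of the 10. Its counts were 94, 56 and 149 reads in Col-0 and 34, 30 and 52 reads in the mutant, or 6.21, 3.77 and 11.3 CPM against 2.63, 1.89 and 3.98 CPM. Mutant replicate 3 lay slightly above Col-0 replicate 2, so the groups overlapped. The fitted decrease was 2.51-fold (log2 fold change -1.33 ± 0.42 SE, edgeR adjusted p = 0.0375). Without Col-0 replicate 3, the highest library, it was -0.83 on the log2 scale and did not pass (0.108), nor did it pass in limma-voom (0.0630), without Col-0 replicate 1 (0.0758) or mutant replicate 1 (0.0813) or 2 (0.139), and the range over alternatives was 0.00468 to 0.139.

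ZAT10 (AT1G27730, chromosome 1), also called salt tolerance zinc finger, was the most abundant of the 4 ZAT genes, at 128, 114 and 111 CPM in Col-0. The mutant libraries had 70.1, 55.7 and 115 CPM. Mutant replicates 1 and 2 stood at 59.6% and 47.4% of the wild-type mean, and replicate 3 stood at 97.4% of it, inside the wild-type range. The log2 fold change was -0.56 ± 0.23 SE with an adjusted p of 0.0870 (edgeR quasi-likelihood test), and the group means were 118 ± 9.53 and 80.1 ± 30.7 CPM (SD, n = 3 per group). Without mutant replicate 3 the log2 fold change was -0.90 with an adjusted p of 0.00129, and over the alternatives the adjusted p ranged from 0.00129 to 0.233.

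The 2 calcium sensors differed. TCH3 (AT2G41100, chromosome 2), which encodes the calmodulin-like protein CML12, was the most abundant of the 10 genes in Col-0, at 470, 278 and 731 CPM. In the mutant it had 175, 92.3 and 213 CPM. The wild-type libraries themselves spanned a wide range, and still the highest mutant library lay below the lowest of them.

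TCH3 fell 3.08-fold, from 493 ± 227 to 160 ± 61.6 CPM (SD, n = 3 per group; log2 fold change -1.62 ± 0.38 SE, adjusted p = 0.0119, edgeR quasi-likelihood test, Benjamini-Hochberg adjustment). It was the sole gene of the 10 that passed in all 13 alternatives, with log2 fold changes from -1.91 to -1.23 and adjusted p from 0.000769 to 0.0412. The gene, which has 3 exons, follows the EF-hand gene AT2G41090 at a distance of 37 bp on the same strand. AT2G41090 moved the other way, from 32.5, 22.8 and 38.3 CPM in Col-0 to 50.5, 66.9 and 47.2 CPM in the mutant, and rose by 0.82 ± 0.19 SE on the log2 scale (edgeR adjusted p = 0.0128), with an adjusted p of 0.0523 without mutant replicate 2. The exons of the 2 neighbours align at up to 84.2% identity, below the limit of 95% over 100 bp used for near-identical copies.

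TCH2 (AT5G37770, chromosome 5), which encodes the calmodulin-like protein CML24, had 85.6, 94.8 and 75.7 CPM in Col-0 and 95.4, 84.5 and 116 CPM in the mutant. The groups overlapped, and mutant replicate 3 was the highest of the 6 libraries. The log2 fold change was 0.21 ± 0.13 SE (edgeR adjusted p = 0.231), and it stayed between 0.07 and 0.31 with no call in any of 13 alternatives. The nearest gene upstream, at 4846 bp, is the calmodulin gene CAM1, which rose by 0.23 ± 0.07 SE on the log2 scale, from 58.4 ± 1.41 to 68.6 ± 3.86 CPM (SD, n = 3 per group; edgeR adjusted p = 0.0312). That small rise passed in 6 of 13 alternatives.

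Of the ethylene response factors, ERF6 (AT4G17490, chromosome 4), an activator that is a substrate of the kinases MPK3 and MPK6 and restrains leaf growth under osmotic stress, had 88.2, 66.6 and 92.9 CPM in Col-0. The mutant libraries had 32.9, 26.0 and 57.8 CPM. The groups did not overlap, with mutant replicates 1 and 2 at 39.9% and 31.5% of the wild-type mean and replicate 3 at 70.0%. ERF6 fell 2.13-fold, from 82.6 ± 14.0 to 38.9 ± 16.7 CPM (SD, n = 3 per group; log2 fold change -1.09 ± 0.26 SE, adjusted p = 0.0144, edgeR quasi-likelihood test). The call held in 12 of 13 alternatives (adjusted p 0.000752 to 0.0528) and was lost without Col-0 replicate 1 (0.0528).

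ERF5 (AT5G47230, chromosome 5), the closest relative of ERF6 and likewise a defence activator, had 75.5, 45.3 and 66.1 CPM in Col-0 and 34.4, 28.5 and 52.4 CPM in the mutant. Mutant replicate 3 lay above Col-0 replicate 2, so the groups overlapped. The log2 fold change was -0.70 ± 0.24 SE, just short of the threshold (edgeR adjusted p = 0.0526), between means of 62.3 ± 15.4 and 38.4 ± 12.4 CPM (SD, n = 3 per group). It passed in 7 of 13 alternatives, among them without Col-0 replicate 2 (0.0259) and without mutant replicate 3 (0.00852), and the adjusted p ranged from 0.00852 to 0.176.

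ERF104 (AT5G61600, chromosome 5), which MPK6 binds and releases upon flagellin perception, had 197, 173 and 136 CPM in Col-0. In the mutant it had 105, 75.1 and 132 CPM. The groups did not overlap, but mutant replicate 3 came close to the lowest Col-0 library, replicate 3. ERF104 fell 1.62-fold, from 168 ± 30.6 to 104 ± 28.5 CPM (SD, n = 3 per group; log2 fold change -0.70 ± 0.20 SE, edgeR adjusted p = 0.0276). The call was lost without Col-0 replicate 1 (0.103) or 2 (0.0671) or mutant replicate 1 (0.0564) or 2 (0.0731), over a range from 0.00255 to 0.103.

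ERF105 (AT5G51190, chromosome 5), a gene of the cold response that acts in freezing tolerance, had 75.3, 71.2 and 57.1 CPM in Col-0 and 33.1, 26.2 and 54.96 CPM in the mutant. Here too the groups were separated, with mutant replicate 3 just under Col-0 replicate 3. The decrease was 1.79-fold, from 67.9 ± 9.57 to 38.1 ± 15 CPM (SD, n = 3 per group; log2 fold change -0.84 ± 0.24 SE, edgeR adjusted p = 0.0273). Without Col-0 replicate 1 (0.0934) or 2 (0.0689) or mutant replicate 1 (0.0705) or 2 (0.0819) it did not pass, and the range over alternatives was 0.00107 to 0.0934. The single exon of ERF105, 965 bp, lies wholly opposite the gene AT5G51180, which had 32.1 ± 0.772 CPM in Col-0 and 29.7 ± 3.12 CPM in the mutant (SD, n = 3 per group; log2 fold change -0.11, edgeR adjusted p = 0.361). The library kit keeps strand, but whether the counting used strand is not stated in these sources, so reads of the 2 genes may not be separated. TCH2 overlaps the antisense gene AT5G37760, which held at most 0.841 CPM. TCH3 overlaps the antisense loci AT2G41105, which is not among the counted loci, and AT2G09220, for which no counts were used here.

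**Figure D2:**
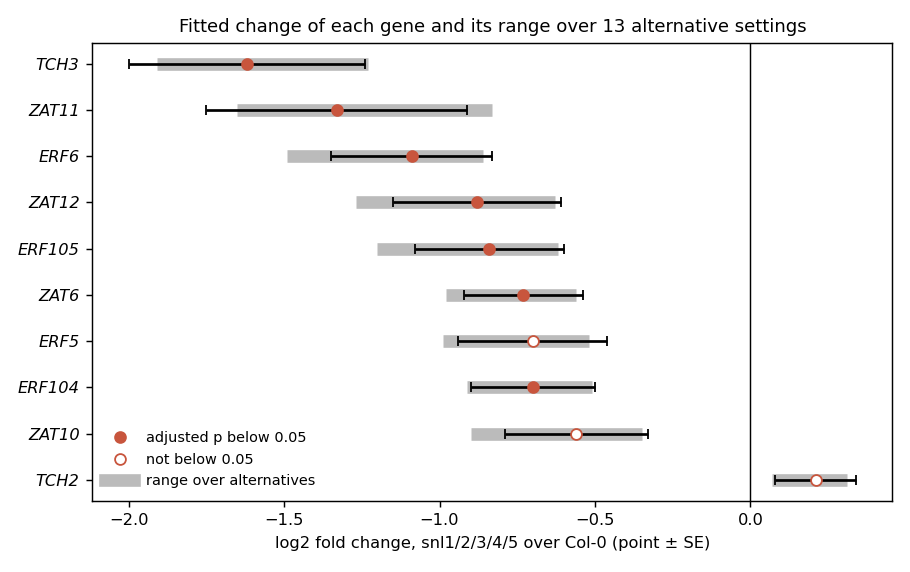
Fitted log2 fold change of each gene, snl1/2/3/4/5 over Col-0 (points, with SE as black bars), and the range of the same value over 13 alternative settings (grey bars). Filled points passed an adjusted p of 0.05 and open points did not. TCH3 is lowest at -1.62, TCH2 stands alone to the right of 0 at 0.21, and no grey bar crosses 0.

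In the authors' deposited table of lower genes, which lists 480 genes with a log2 fold change of at least 1 in size, 3 of the 10 genes appear. TCH3 is given there at -1.64 (FDR 1.48e-06 in the authors' deposited table), ERF6 at -1.10 (FDR 1.7e-05) and ZAT11 at -1.34 (FDR 0.00155). None of the 10 is among the 695 genes of the authors' deposited table of higher genes. Both deposited tables are small beside the 19591 genes tested here, so a count of 0 among 10 says little.

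Levels were compared between genes per kilobase of exon. In Col-0 the order was TCH3 (194 ± 89.1 CPM per kilobase), ERF104 (121 ± 22.0) and ZAT10 (90.2 ± 7.31), then ERF105 (70.3 ± 9.92), ERF6 (61.7 ± 10.5), ERF5 (47.9 ± 11.9) and TCH2 (42.5 ± 4.77), then ZAT6 (32.2 ± 4.05) and ZAT12 (30.5 ± 5.18), and last ZAT11 (7.55 ± 4.08; SD, n = 3 each). Ranges overlapped between neighbours in this order, except between ZAT10 and ERF105, TCH2 and ZAT6, and ZAT12 and ZAT11. In the mutant ERF104 led with 74.8 CPM per kilobase, followed by TCH3 (62.8), ZAT10 (61.5) and TCH2 (49.2), and ZAT11 was again last at 3.01. The mutant ranges of all neighbours overlapped except those of ZAT12 and ZAT11.

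The replicates of each group differed among themselves more for these genes than for most. The SD of log2 CPM over the 3 libraries had a median of 0.25 in Col-0 and 0.52 in the mutant over the 10 genes, against 0.11 and 0.15 over all tested genes. In the mutant 9 of the 10 lay in the 10 percent of tested genes with the largest SD, and in Col-0 3 did (ZAT11, TCH3 and ERF5). The SD was larger in the mutant for 8 of the 10, beside 63.2% of all tested genes. ZAT10 differed most between the groups, with an SD of 0.11 in Col-0 and 0.53 in the mutant, and ZAT11 and TCH3 were the exceptions, with 0.77 and 0.70 in Col-0 against 0.51 and 0.63 in the mutant.

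In the mutant all 10 genes had the same order of libraries. Replicate 2 was lowest and replicate 3 highest in 10 of 10, an order seen in 16.1% of tested genes, and replicate 3 was highest in 37.9% of tested genes. On average over the 10 genes replicate 3 lay 0.51 above and replicate 2 0.46 below the mutant mean on the log2 scale, and replicate 1 lay 0.05 below it. The Col-0 libraries showed no single order. Replicate 2 was lowest for ZAT6, ZAT11, TCH3, ERF5 and ERF6, and replicate 3 was lowest for ZAT10, ZAT12, TCH2, ERF104 and ERF105. In the first of these sets replicate 3 was highest for all but ERF5, and in the second replicate 1 was highest for ZAT10, ERF104 and ERF105 and replicate 2 for ZAT12 and TCH2. Mutant replicate 3 is also the library with the highest SNL1 to SNL5 levels in its group, for SNL5 by a small margin over replicate 1. That library has the highest summed green tissue markers and the lowest summed root markers of the group as well. The root sum was mostly PYK10, at 3081, 2763 and 2268 CPM in mutant replicates 1 to 3. The part of these differences in this order was not tested.

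**Figure D3:**
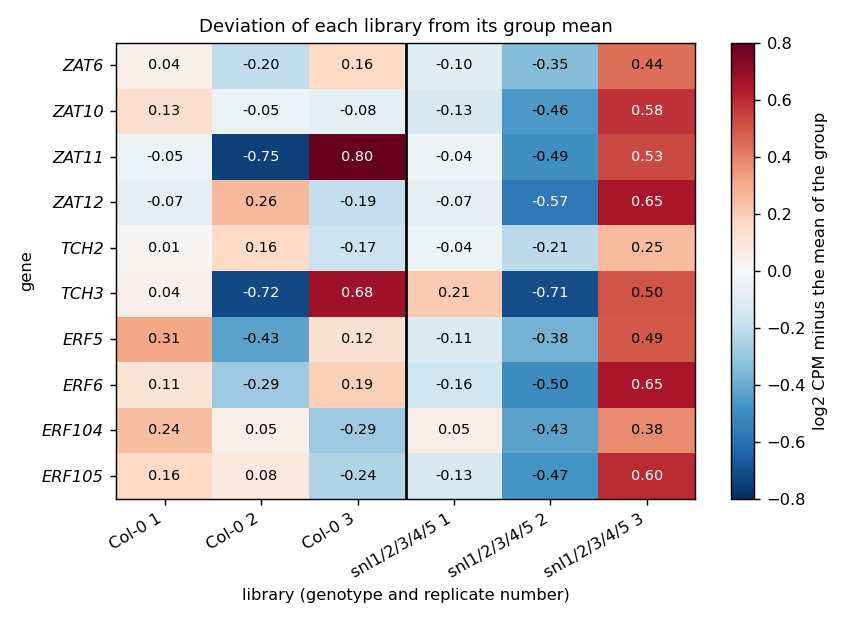
Deviation of each library from the mean of its group in log2 CPM, for the 10 genes (one line each) and the 6 libraries (columns, with the groups divided by the black line). Red is above and blue below the group mean, and the number is printed in each cell. Mutant replicate 3 is red for all 10 genes (0.25 to 0.65) and mutant replicate 2 blue for all 10 (-0.71 to -0.21), whereas Col-0 replicates 2 and 3 split the genes into 2 sets.

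Deviations from the group means were correlated across the 6 libraries as a description. The genes share libraries and depth, and 6 points in 2 groups leave few independent values. The correlation with the mean deviation of all 10 genes, to which each gene contributes, ranged from 0.62 for TCH2 to 0.99 for ERF6. The pairs with the highest r were ZAT6 with ERF6 (1.00), ZAT10 with ERF105 (0.97), ZAT11 with TCH3 (0.96) and ZAT12 with TCH2 (0.96). Lowest were ZAT11 with TCH2 (-0.03), TCH2 with TCH3 (0.07) and ZAT11 with ERF104 (0.14). TCH2 thus moved between libraries with ZAT12 although the means of the 2 genes differed between genotypes in opposite directions, of which the TCH2 difference did not pass the test.

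Among 18910 other genes with at least 1 CPM on average, the 6 whose deviations were most like the mean of the 10 had r between 0.998 and 0.999. They were AT1G54740, a FANTASTIC four-like protein gene, AT1G06710, a tetratricopeptide repeat protein gene, AT1G25400, which is uncharacterized, AGT2, XXT5 and AT4G32680. An r above 0.9 was found for 2.95% of these genes. AT1G25400 also fell, from 87.0, 61.2 and 86.7 CPM in Col-0 to 22.4, 13.2 and 41.7 CPM in the mutant, by 1.61 ± 0.35 SE on the log2 scale (edgeR adjusted p = 0.00871). AT1G06710 fell by 0.77 on the log2 scale (edgeR adjusted p = 0.00623), and the other 4 of the 6 did not pass the test, although AT1G54740 (0.0335) and AGT2 (0.0297) did without mutant replicate 3.

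Other genes of the rapid response came from a list of 29, of which 28 were tested. The list was chosen with earlier results of these data known, so its counts are a description and not independent support. The 28 were lower in 15 cases and higher in none, beside 16.5% lower and 18.3% higher over all tested genes (edgeR quasi-likelihood test). The other 13 of the 28 did not pass. At an unadjusted p below 0.05 edgeR had 1 higher, and DESeq2 called 1 higher. Their median log2 fold change was -0.72, and 24 of the 28 lay below 0. SIB1, a regulator of plastid and nuclear defence signalling, fell from 7.53, 5.19 and 9.48 CPM to 1.70, 2.01 and 2.06 CPM, a 3.81-fold decrease (edgeR adjusted p = 0.00110). WRKY46, a stress transcription factor, fell 5.37-fold (0.00168), CBF1, the cold-induced activator, 4.64-fold (0.00915) and ERF11, a repressor of the ERF family, 1.81-fold (0.00759). HSPRO2, a gene of basal resistance and the most abundant of the list, went from 893, 848 and 901 CPM to 518, 417 and 688 CPM and fell by 0.70 on the log2 scale (edgeR adjusted p = 0.0110). SZF1, a tandem zinc finger gene of the salt response, fell by 0.84 (0.0273), a call lost without Col-0 replicate 1 or 3, and without mutant replicate 1 or 2 (adjusted p up to 0.0814), and in DESeq2 (0.0548). The count of 15 became 5 without mutant replicate 2, 7 without Col-0 replicate 1, 8 without Col-0 replicate 3 or mutant replicate 1, and 22 at most. Over all tested genes the count of lower genes, 3224 with all libraries, ranged from 1757 to 3511 in such fits. Deviations of 6 of these genes had an r above 0.9 with the mean of the 10 (21.4%), and the median r was 0.74 against 0.05 over all 18910.

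Among 16 tested calcium sensors and touch genes other than TCH2 and TCH3, 6 passed as higher, 2 as lower and 8 in neither direction, beside 18.3% higher and 16.5% lower over all tested genes, and the median log2 fold change was 0.21. AT2G41090, the neighbour of TCH3 that rose, was on this list under a symbol that its RefSeq names do not hold. It is not in that count. The calmodulin genes CAM5, CAM3 and CAM7 rose by 0.67, 0.40 and 0.38 on the log2 scale (edgeR adjusted p between 0.000431 and 0.00459), and CAM5 went from 51.4, 52.0 and 51.0 CPM to 82.8, 85.5 and 77.3 CPM. CML11, a calmodulin-like gene, rose by 1.69 (0.00164), from at most 2.02 CPM in Col-0 to at least 4.82 CPM in the mutant. The others that rose were CAM1 and CML43, and CML9, with 0.26, did not pass. The calls of CAM1 and CML43 were lost without Col-0 replicate 1 or 2 or mutant replicate 1 or 2 and in DESeq2 (adjusted p up to 0.0955 and 0.0897), and that of CAM1 also without Col-0 replicate 3.

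The 2 that fell were XTH22 and CML38. XTH22, the touch gene TCH4, encodes a xyloglucan-modifying enzyme of the cell wall and had 315, 345 and 280 CPM in Col-0 and 146, 86.4 and 253 CPM in the mutant. Its libraries did not overlap, and mutant replicate 2 was lowest and replicate 3 highest in its group. The log2 fold change was -0.96 ± 0.32 SE (edgeR adjusted p = 0.0457), and that of CML38 was -0.70 (0.0486). Neither passed without any 1 of the 3 Col-0 libraries or of mutant replicates 1 and 2, where the count of lower genes in the list became 0, and the adjusted p reached 0.110 for XTH22 and 0.151 for CML38. XTH22 did not pass in DESeq2 either. CML38, CML43 and CAM1 were named after their values were seen.

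None of the 4 other C2H2 zinc finger genes tested passed in either direction by edgeR, also at an unadjusted p below 0.05, or by any of the alternatives. With 16.5% called lower and 18.3% higher over all tested genes, a count of 0 among 4 says little. ZAT1, ZAT4, ZAT5, ZAT8, ZAT9 and ZAT18 were on this list but were left out, because their RefSeq names do not hold the symbol. The most abundant, AZF2, had 23.0 ± 2.78 CPM in Col-0 and 21.8 ± 3.01 CPM in the mutant (SD, n = 3 per group), and ZAT7 had a log2 fold change of 0.37 (edgeR adjusted p = 0.451). Of the 6 other group IX ERF genes tested, 1 fell and 5 did not pass, a share close to the 16.5% of all tested genes, with a median log2 fold change of 0.07. The one was ERF13, at 9.91, 7.07 and 8.95 CPM in Col-0 and 2.47, 2.01 and 4.97 CPM in the mutant, a 2.77-fold decrease (edgeR adjusted p = 0.00704). ERF1A, which lies 5041 bp from ERF6, had a log2 fold change of -0.37 (0.185), which became -0.65 (0.00875) without mutant replicate 3, and ERF2, close to ERF5, one of 0.06 (0.822). AT5G61590 (DEWAX), the neighbour of ERF104 at 832 bp, was on the group IX ERF list under a symbol that its RefSeq names do not hold and is not in that count. It fell by 0.70 ± 0.08 SE on the log2 scale (edgeR adjusted p = 0.000667), the same size as ERF104, but with mutant libraries close together at 58.8, 57.2 and 60.4 CPM.

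Among 18 regulators that act upstream, 5 fell, 1 rose and 12 did not pass, beside 16.5% lower and 18.3% higher over all tested genes. The median log2 fold change of the 18 was -0.14. CAMTA1 and CAMTA3, the calmodulin-binding activators of rapid stress genes, fell by 0.48 and 0.59 on the log2 scale (edgeR adjusted p = 0.00151 and 0.00989), and the kinase gene MPK6 fell by 0.29 (0.00894). MSL10, a mechanosensitive ion channel gene, rose by 0.54 (0.00677). The other 2 that fell, named after their values were seen, were VIP1, a transcription factor of the touch response (log2 fold change -0.26, edgeR adjusted p = 0.0226), and MPK3. VIP1 did not pass without any 1 Col-0 library or without mutant replicate 1 or 2 (up to 0.0840). MPK3 had 158, 95.2 and 241 CPM in Col-0 and 74.8, 70.3 and 98.5 CPM in the mutant, with a log2 fold change of -1.02 (0.0271), and its groups overlapped. Without Col-0 replicate 1 or 3, or mutant replicate 1 or 2, the list's count of lower genes was 3 and MPK3 did not pass (adjusted p up to 0.105). FER, a receptor kinase gene that senses the cell wall, and OSCA1, a calcium channel gene of the osmotic response, had log2 fold changes of -0.09 and 0.07 and did not pass.

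**Figure D4:**
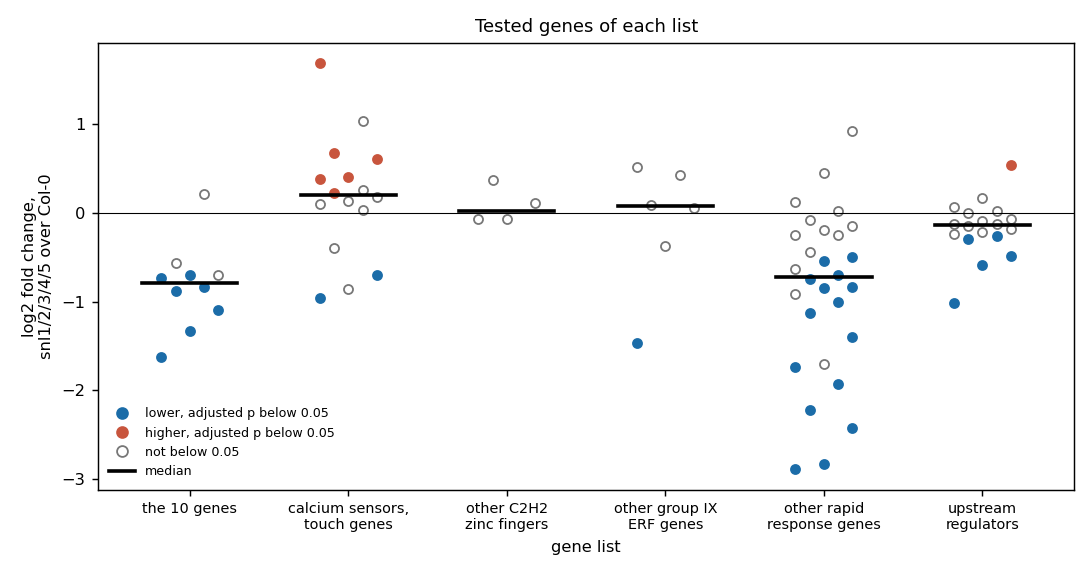
Log2 fold change (snl1/2/3/4/5 over Col-0) of each tested gene in the 10 genes and in 5 lists of related genes, with the median of each list as a black line. Blue points are lower and red points higher at an adjusted p below 0.05, and open points did not pass. The medians are -0.78 for the 10 genes, -0.72 for the other rapid response genes and 0.21 for the calcium sensors and touch genes, beside 0 over all tested genes.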

How the data were processed

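Read counts per gene were analysed for 6 libraries, 3 of Col-0 and 3 of snl1/2/3/4/5, grouped by the sample titles and genotype labels. The authors deposited whole-number counts for 33602 loci with no normalization. The submitters' processing notes name the genome TAIR10 and the tools cutadapt (1.4), TopHat, HTSeq and edgeR. These sources state no other version and no strand setting. The authors' deposited tables of called genes give log2 fold changes, p-values and adjusted p-values, and 24 columns of values per sample in them were not used.

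A filter on low counts (filterByExpr with the CPM of about 10 reads in at least 3 libraries and 15 reads in all) kept 19591 genes, among them all 10 described here. After TMM scaling, genotype was the only term of a quasi-likelihood fit in edgeR 4.0.16 under R 4.3.3 (glmQLFit, then glmQLFTest). P-values were adjusted by Benjamini-Hochberg, and genes below 0.05 were called. The fit was tested on simulated data. CPM use TMM-scaled totals, folds are 2 raised to the log2 fold change, and the SE is the size of the log2 fold change divided by the square root of F. Log2 CPM for spread and deviations used a prior count of 2. Names, neighbours and promoters come from RefSeq's TAIR10.1. Levels of pairs of replicates differed by more than sampling noise (chi-square per degree of freedom 3.69 to 14.4).

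The 10 genes, the lists, the motifs and the tests were chosen with earlier results of these data known. The naming rule took all 10 genes, up to 4 called genes per other list by adjusted p and the next 2 by mean CPM, and the 6 genes most like the 10. 19 list entries were left out because their RefSeq names do not hold the symbol. Alternatives changed 1 choice at a time: scaling by DESeq2 size factors or by totals alone, the filter dropped or set to 1 CPM in at least 3 libraries, limma-voom (limma 3.58.1) as the test, the replicate number as a block, and leaving out each library in turn. The default DESeq2 1.42.0 run changed filter, scaling and test together.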

Additional observations from a re-analysis of the deposited data

How the results depend on the processing

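Of the 10 genes, 7 were lower with DESeq2 size factors, with at least 1 CPM in 3 libraries, in limma-voom and with a replicate block, 8 with library totals alone or no filter and 9 in DESeq2. Leaving out 1 library gave 1 to 9 lower and 0 higher. ZAT11 did not pass in limma-voom (adjusted p = 0.0630). ERF5 passed with library totals (0.0433), with no filter (0.0335), in limma-voom (0.0479) and in DESeq2 (0.0125), where ZAT10 passed too (0.0389). Lower genes among other group IX ERF genes numbered 2 with no filter and 2 in DESeq2, and higher genes among other rapid response genes 1 with no filter and 1 in DESeq2. The cause was not tested.

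Libraries left out in turn gave 1757 to 3511 lower and 2290 to 3806 higher genes over the whole table. The calls were 0 to 3 lower and 4 to 7 higher for calcium sensors and touch genes, 0 for other C2H2 genes, and 1 to 3 lower and 0 to 1 higher for other group IX ERF genes. They were 5 to 22 lower and 0 to 2 higher for other rapid response genes, and 3 to 6 lower and 1 higher for upstream regulators. Genes near 0 changed sign: AZF2 ranged from -0.19 to 0.02, ZAT7 from -0.11 to 0.71, ERF2 from -0.15 to 0.21, FER from -0.19 to 0.00 and SNL6 from -0.02 to 0.08.

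Replicate numbers are shared by the groups, but same-numbered libraries deviated together with r of 0.014, 0.148 and -0.056, and Col-0 replicates 1 and 3 correlated best with another number. With the replicate block 7 of the 10 genes were lower, ZAT12 (0.0502), CAM1 (0.0508) and CML43 (0.0541) missed the threshold, ERF5 passed (0.0155), and 2768 genes were lower and 3106 higher over the table.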
